A study of Mus musculus with 8 samples.

Results

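Chemokines made by group 2 innate lymphoid cells (ILC2s) are described here through 9 genes, Ccl1, Ccl3, Ccl4, Ccl5, Ccl17, Ccl22, Xcl1, Cxcl2 and Cxcl10, out of 23183 genes counted in every library. They were chosen by name with the difference between Yoda1 and DMSO already known for several of them, so their values in that contrast are a description and carry no test. Cultured lung ILC2s of C57BL/6 mice (C57BL/6 J in the study's methods) had received 5 µM Yoda1, a chemical opener of the mechanosensitive cation channel Piezo1, or 0.1% DMSO as vehicle for 3 h, with 4 libraries of poly(A)-selected RNA per group. The cells came from mice given IL-33, were enriched with a pan-ILC kit and CD45 beads, and were kept in IL-2, IL-7 and IL-33, and both groups share that history. The study's methods do not say whether the 4 libraries of a group were separate mice or separate cultures, so the spread between them may be technical.

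Chemokines are small secreted proteins that guide the migration of leukocytes by binding G protein-coupled receptors. Several are transcribed soon after a lymphocyte is activated, and calcium entry, which activates the phosphatase calcineurin and the NFAT factors, is one known route to their genes. ILC2s are tissue-resident lymphocytes best known for IL-5 and IL-13, and chemokines give such resident cells a means of recruiting other leukocytes.

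With Yoda1, 4 of the 9 mRNAs were 2.71-fold to 4.01-fold higher than with DMSO. These were the inflammatory chemokines Ccl3 and Ccl4, the Xcr1 ligand Xcl1, and the Ccr8 ligand Ccl1. Cxcl2, a neutrophil attractant, was 1.70-fold higher. Ccl5 and Cxcl10 were well counted in every library and overlapped between the groups, and the Ccr4 ligands Ccl17 and Ccl22 were at or near 0 throughout.

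By position in GRCm38 (GENCODE M21), 4 of the 9 genes lie on chromosome 11. Ccl5 (83525778 to 83530518, minus strand), Ccl3 (83647844 to 83649355, minus strand) and Ccl4 (83662584 to 83664683, plus strand) sit close together, with 13.2 kb between Ccl3 and Ccl4 and 117.3 kb between Ccl5 and Ccl3. Ccl1 (82176657 to 82179812, minus strand) lies 1346.0 kb from Ccl5. Ccl22 (94745590 to 94751699) and Ccl17 (94810453 to 94812036) are neighbours on the plus strand of chromosome 8, with 58.8 kb between them. Cxcl2 (90903873 to 90905938, plus strand) and Cxcl10 (92346638 to 92348882, minus strand) are on chromosome 5, and Xcl1 (164931644 to 164935527, minus strand) is on chromosome 1. All 9 are protein-coding, the CC chemokines and Xcl1 with 3 exons and the CXC chemokines with 4. Exons of Gm20743 overlap Xcl1 and exons of Art3 overlap Cxcl10, in both cases on the opposite strand.

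Promoter windows from RefSeq are printed for 5 of the 7 tested members, because these genes differed to unequal degrees between the groups. Ccl4 and Ccl5 had no window in the promoter set used. Each window covers 250 bases before and 50 bases after the RefSeq start in GRCm38.p6 and is read 5′ to 3′ along the gene, so the start is the first of the last 50 bases. Capitals mark letters that match the core of NFAT sites (GGAAA or its reverse complement), the AP-1 motif TGANTCA, an interferon-stimulated response element-like motif or the NF-kB consensus, on either strand.
Ccl3 promoter, chr11:83649329-83649628, minus strand: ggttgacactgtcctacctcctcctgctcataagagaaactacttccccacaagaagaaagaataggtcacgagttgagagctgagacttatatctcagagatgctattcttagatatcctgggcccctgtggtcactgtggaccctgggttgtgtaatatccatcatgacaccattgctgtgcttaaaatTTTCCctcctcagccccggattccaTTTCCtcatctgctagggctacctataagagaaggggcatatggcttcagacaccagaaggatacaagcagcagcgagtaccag
Xcl1 promoter, chr1:164935473-164935772, minus strand: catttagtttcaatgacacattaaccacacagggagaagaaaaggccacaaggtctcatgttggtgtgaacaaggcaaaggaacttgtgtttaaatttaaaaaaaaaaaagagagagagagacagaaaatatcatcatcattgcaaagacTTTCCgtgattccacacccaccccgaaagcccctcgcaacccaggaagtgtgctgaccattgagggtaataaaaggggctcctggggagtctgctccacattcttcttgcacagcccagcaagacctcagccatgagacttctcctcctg
Ccl1 promoter, chr11:82179763-82180062, minus strand: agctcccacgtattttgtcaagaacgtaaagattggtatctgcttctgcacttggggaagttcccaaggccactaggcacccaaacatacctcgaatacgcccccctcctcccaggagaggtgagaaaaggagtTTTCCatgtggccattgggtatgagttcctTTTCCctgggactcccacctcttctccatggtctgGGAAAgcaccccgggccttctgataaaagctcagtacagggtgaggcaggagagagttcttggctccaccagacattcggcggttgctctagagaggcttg
Cxcl2 promoter, chr5:90903649-90903948, plus strand: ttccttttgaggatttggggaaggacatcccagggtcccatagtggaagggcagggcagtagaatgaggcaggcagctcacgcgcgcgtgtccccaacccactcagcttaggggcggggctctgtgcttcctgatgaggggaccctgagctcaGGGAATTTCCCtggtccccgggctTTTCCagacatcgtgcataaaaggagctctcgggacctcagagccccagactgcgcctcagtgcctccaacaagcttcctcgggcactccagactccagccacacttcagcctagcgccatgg
Cxcl10 promoter, chr5:92348840-92349139, minus strand: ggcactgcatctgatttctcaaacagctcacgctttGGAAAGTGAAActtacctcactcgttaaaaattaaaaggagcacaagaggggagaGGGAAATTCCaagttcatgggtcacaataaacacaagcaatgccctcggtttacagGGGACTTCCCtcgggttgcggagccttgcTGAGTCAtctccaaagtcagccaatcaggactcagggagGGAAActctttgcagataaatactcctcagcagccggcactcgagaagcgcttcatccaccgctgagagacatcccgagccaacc

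The windows of Ccl3, Xcl1 and Ccl1 held only the NFAT core among the motifs searched, with 2, 1 and 3 matches. In Ccl3 both matches lay close to the start, at -59 to -55 and -34 to -30 relative to it. Cxcl2 had 2 core matches, 1 of them inside a pair of overlapping NF-kB matches, on opposite strands, between -97 and -87. Cxcl10 had the widest set, with 3 NFAT cores, an AP-1 motif at -74 to -68, an interferon response-like motif at -213 to -204 and 2 NF-kB matches. The first NFAT core of Cxcl10 overlaps its interferon response-like motif, and the second lies inside an NF-kB match.

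So short a core is common, and 61.3% of all 32851 promoter windows in the table held it, against 6 of the 7 member windows. These 7 include the untested Ccl17 and Ccl22 and leave out Ccl4 and Ccl5. The NF-kB consensus was in 4.51% of all windows and in 2 of the 7, AP-1 in 7.81% and 1, and the interferon response-like motif in 3.44% and 1. The GAS motif TTCNNNGAA was in 8.30% of all windows and in Ccl17 alone of the 7. None of the 7 held the cAMP response element TGACGTCA, the EGR motif GCGNGGGCG, the Nr4a motif AAAGGTCA or TATAAA, which were in 1.79%, 5.55%, 1.51% and 13.6% of all windows. These are matches of letters in 1 window per gene and do not show that any factor was bound.

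**Figure D1:**
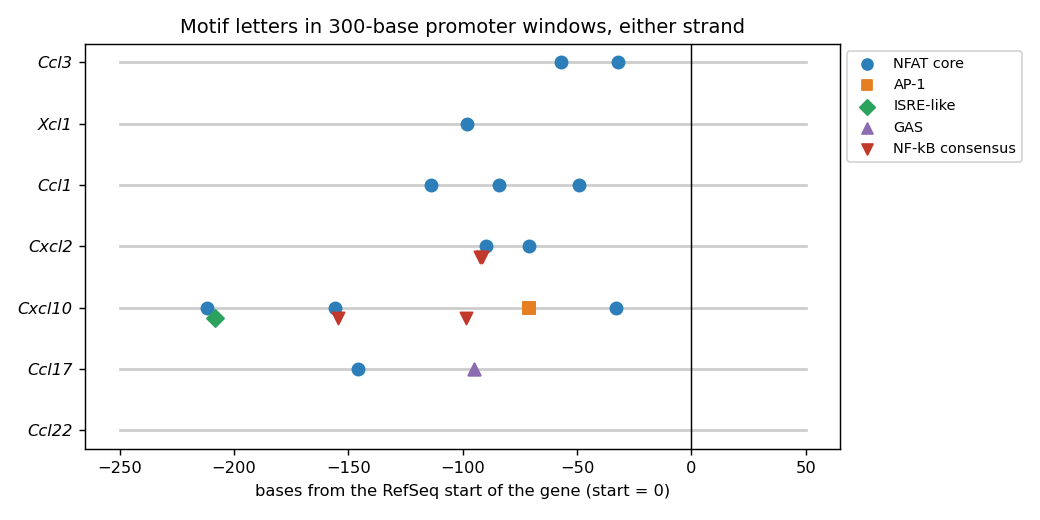
Motif matches on either strand in the promoter windows of 7 of the chemokine genes, plotted by distance in bases from the RefSeq start (0, vertical line). Ccl3, Xcl1 and Ccl1 carry the NFAT core only, Cxcl2 adds NF-kB, Cxcl10 holds 4 kinds of motif, and Ccl22 holds none of those searched.

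Reads were counted by the authors per gene symbol and deposited as raw counts, and levels are given here as CPM, which are counts scaled to a common library total after correction by edgeR's TMM factors. Library totals ran from 13435521 to 18216729 with DMSO and from 12438009 to 19534653 with Yoda1, and no difference was detected between them (exact two-sided permutation p = 0.971). A single count was worth 0.0514 to 0.0807 CPM. The differences and their standard errors come from edgeR's quasi-likelihood fit over the 12239 genes that passed a filter on low counts. Of the 9 chemokine genes, 7 passed that filter and each of them had at least 66 counts in every library, so none passed through the Yoda1 group alone.

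In bulk RNA, more cells of a type and more RNA per cell cannot be told apart, and Ccl3, Ccl4, Ccl5 and Xcl1 are also typical products of NK cells and CD8 T cells. All 14 ILC2 markers passed the low-count filter, with summed levels of 18462 to 18978 CPM in DMSO and 20735 to 21132 CPM in Yoda1 libraries (exact two-sided permutation p = 0.0286, the lowest possible with 4 against 4). With Yoda1 6 of the 14 were higher, Il13, Il5, Arg1, Il1rl1, Thy1 and Ptprc, and 1 was lower, Icos. In the DMSO and Yoda1 means Il13 was at 5431 and 6667 CPM and Il5 at 3337 and 3672. Of the 7 not called, Gata3, Rora, Id2 and Klrg1 had log2 fold changes from -0.023 to 0.034. Il7r, Il2ra and Hpgds were at 0.11, 0.086 and 0.23. At the same edgeR adjusted p of 0.05, 6.04% of all tested genes were higher and 4.84% lower. The 10 NK or CD8 T cell markers summed to 809 to 894 and 862 to 930 CPM (exact permutation test, p = 0.0571), most of it Prf1 and Gzma reads, and none of the 10 was at 0. Of these, 3 were higher, Eomes (log2 fold change 0.21), Prf1 (0.14) and Klri2 (0.28), and none was lower, by edgeR's adjusted p. In the DMSO and Yoda1 means Eomes was at 37.8 and 43.8 CPM, Klrd1 at 25.1 and 27.2 and Klri2 at 15.7 and 18.8. Klra8 was at 8.58 and 9.89 CPM and Cd8a at 6.18 and 7.10 in these means. Ncr1 was at 4.42 and 3.70 CPM, Klrb1c at 6.07 and 5.28 and Cd8b1 at 0.687 and 0.631. The log2 fold change was above 0 for 7 of the 10. The 7 T cell markers summed to 83.0 to 90.1 and 91.0 to 101 CPM (exact permutation test, p = 0.0286). Cd28 alone was called (log2 fold change 0.29), and 5 of the 7 had a log2 fold change above 0. Cd3g, the most abundant, was at 46.8 and 52.2 CPM in the DMSO and Yoda1 means. Cd3d was at 9.08 and 9.83 CPM, Cd4 at 4.05 and 4.79 and Cd3e at 6.50 and 5.80. The part of such cells in the chemokine levels was not tested.

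Markers of other cells were low, apart from Pecam1 of the epithelial and stromal list. The 14 macrophage, monocyte and dendritic cell markers summed to at most 9.39 CPM in any library, with C1qa, C1qb, C1qc and Marco at 0 in all 8, and their exact permutation p between groups was 0.914. B cell markers reached at most 7.198 CPM, mast cell and basophil markers 7.31 CPM, and neutrophil and eosinophil markers 0.900 CPM, with S100a8, S100a9 and Retnlg at 0. The epithelial and stromal list stood at 213 to 227 CPM through Pecam1, with Sftpc and Scgb1a1 at 0.

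Over the tested members, 5 of 7 had all Yoda1 libraries above all DMSO libraries, the ordering that 8.44% of all tested genes showed, while 7.05% of all genes showed the reverse. At the threshold of the fit across all genes, an adjusted p of 0.05, 6.04% of all tested genes were higher and 4.84% lower with Yoda1. A log2 fold change of at least 1 was reached by 4 of the 7 and by 0.261% of all tested genes. The median log2 fold change was 1.44 over the 7 and -0.0053 over all genes tested. Because the members were selected on this contrast, nothing is read from these shares.

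Ccl3 and Ccl4 encode the inflammatory chemokines once named macrophage inflammatory proteins, which draw monocytes, NK cells and T cells, and Ccl3 binds Ccr1. Ccl3 was at 55.1, 58.5, 56.3 and 77.2 CPM in the 4 DMSO libraries and at 255, 237, 252 and 247 CPM in the 4 Yoda1 libraries. DMSO replicate 4 stood above the other 3 controls, and the lowest Yoda1 library was still 3.08 times that library. The group means were 61.8 ± 10.4 and 248 ± 7.53 CPM (SD, n = 4 each), 4.01-fold apart, or 2.01 on the log2 scale (standard error 0.101). Without DMSO replicate 4 the log2 fold change was 2.13.

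Ccl4 was at 27.3, 28.6, 27.3 and 38.5 CPM with DMSO and at 124, 113, 130 and 119 CPM with Yoda1. The same control, replicate 4, was again the highest, and the groups were 2.94-fold apart at their nearest libraries. Its means of 30.4 ± 5.42 and 122 ± 7.27 CPM (SD, n = 4 each) were 4.0-fold apart (2.01 on the log2 scale, standard error 0.102). The neighbouring genes kept nearly the same proportion, since the ratio of Ccl3 to Ccl4 reads lay between 1.93 and 2.10 in all 8 libraries, with a mean of 2.03 ± 0.0271 in DMSO and 2.04 ± 0.0731 in Yoda1 libraries. By log2 fold change the pair ranked 5 and 6 among the 12239 genes.

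Xcl1 encodes lymphotactin, which attracts the cross-presenting dendritic cells that carry Xcr1. Its levels were 12.1, 12.3, 10.3 and 16.6 CPM in the DMSO libraries and 44.4, 41.4, 51.2 and 43.8 CPM in the Yoda1 libraries. No Yoda1 library came within 2.50-fold of any control. The means were 12.8 ± 2.66 and 45.2 ± 4.21 CPM (SD, n = 4 each), 3.53-fold apart, or 1.83 on the log2 scale (standard error 0.109), rank 8 of 12239. Gm20743 shares 10.8% of the 50-base stretches of the Xcl1 transcript, and whether the counting separated strands is not given in the sources used here, so some of these reads may belong to the opposite strand.

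Ccl1 encodes the ligand of Ccr8, a receptor of type 2 helper T cells, regulatory T cells and ILC2s themselves. It was at 7.07, 8.60, 6.97 and 9.61 CPM with DMSO and at 22.8, 21.9, 22.6 and 20.01 CPM with Yoda1. The Yoda1 libraries were close to each other and all were at least 2.08 times the highest control. The means of 8.06 ± 1.27 and 21.8 ± 1.28 CPM (SD, n = 4 each) differed 2.71-fold (log2 fold change 1.44, standard error 0.0930), rank 15 of 12239.

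Cxcl2 encodes a Cxcr2 ligand that recruits neutrophils. It was the least counted of the tested members, with 4.13, 5.203, 5.12 and 5.99 CPM in DMSO libraries and 8.88, 7.61, 9.52 and 8.74 CPM in Yoda1 libraries, from 66 to 170 counts. The groups did not overlap, but the lowest Yoda1 library was only 1.27 times the highest control. Means of 5.11 ± 0.761 and 8.69 ± 0.796 CPM (SD, n = 4 each) lay 1.70-fold apart, or 0.77 on the log2 scale (standard error 0.120). Of the 50-base stretches of the Cxcl2 transcript, 5.75% also occur in its close relative Cxcl3, itself at 96.7 ± 1.33 and 129 ± 5.88 CPM, so a part of the Cxcl2 reads may have come from Cxcl3.

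Ccl5, which encodes a ligand of Ccr1 and Ccr3 that memory T cells and NK cells store and release, was high in both groups. It was at 323, 316, 309 and 305 CPM with DMSO and at 330, 320, 330 and 338 CPM with Yoda1, so 1 Yoda1 library fell below the highest control. The means were 314 ± 7.95 and 330 ± 7.28 CPM (SD, n = 4 each), with a difference of 0.073 on the log2 scale (standard error 0.0348). DMSO replicate 4, the highest control for 5 of the other 6 tested members, was the lowest control for Ccl5.

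Cxcl10 encodes an interferon-induced ligand of Cxcr3, the receptor of type 1 T cells and NK cells. It was at 71.5, 72.7, 80.3 and 78.2 CPM with DMSO and at 80.2, 87.7, 86.1 and 79.1 CPM with Yoda1. The ranges overlapped, with 2 Yoda1 libraries below the highest control. Its means were 75.7 ± 4.24 and 83.2 ± 4.27 CPM (SD, n = 4 each), and their log2 difference was 0.14 (standard error 0.0472). Art3 shares 8.04% of its 50-base stretches, from the opposite strand.

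Ccl17 and Ccl22 encode the Ccr4 ligands that dendritic cells and macrophages make in type 2 inflammation. Ccl17 had 1, 1, 0 and 2 counts in the DMSO libraries and 1, 3, 0 and 4 in the Yoda1 libraries, and Ccl22 had 3, 1, 8 and 6 against 3, 6, 2 and 12. Neither passed the filter, and no difference was detectable at this depth.

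**Figure D2:**
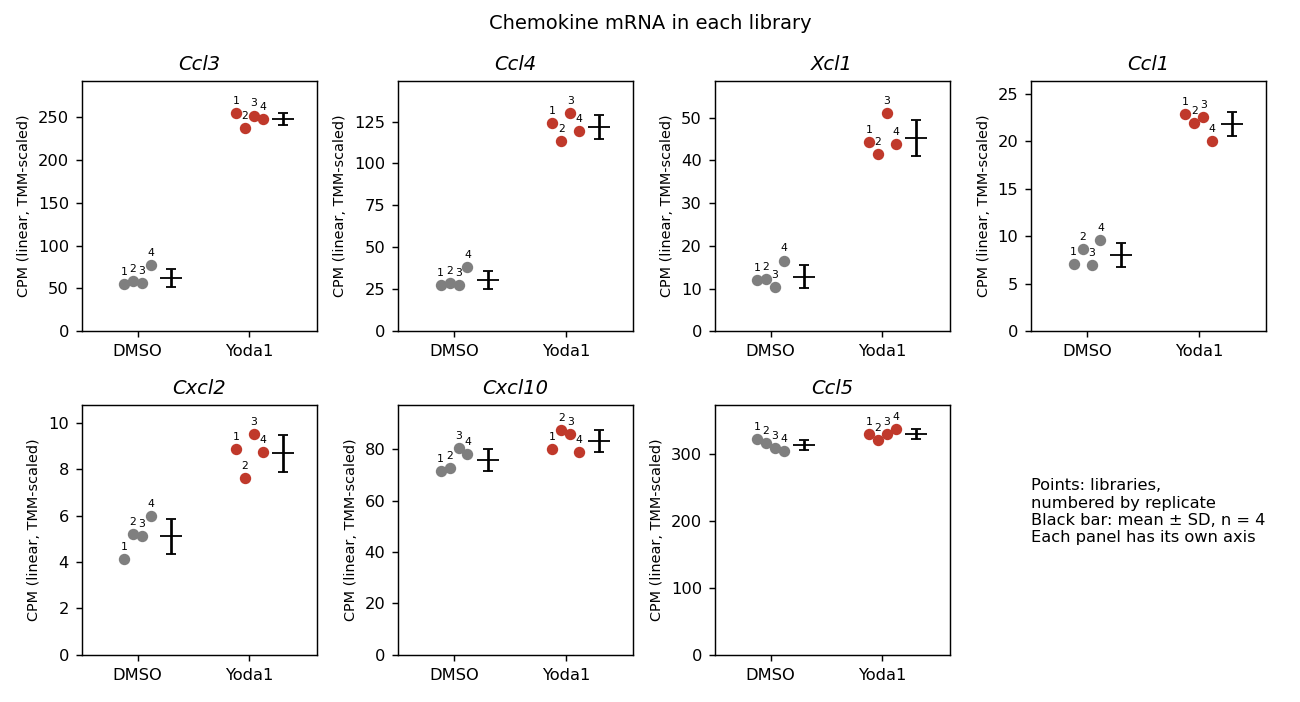
Level of each tested chemokine mRNA in every library, in CPM on a linear axis from 0 that is separate for each gene, with points numbered by replicate and black bars for the mean ± SD of 4 libraries. Ccl3, Ccl4, Xcl1, Ccl1 and Cxcl2 are higher in all 4 Yoda1 libraries than in any DMSO library, and Cxcl10 and Ccl5 overlap.

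With DMSO replicate 4 included, the members that were higher with Yoda1 had the larger relative spread among the controls. Without that library the controls lay between 55.1 and 58.5 CPM for Ccl3 and between 27.3 and 28.6 CPM for Ccl4. Ccl1 and Cxcl2 had as few as 109 and 66 counts in a library, where counting error adds to the spread. The coefficient of variation over the 4 DMSO libraries was 16.8% for Ccl3, 17.8% for Ccl4, 20.8% for Xcl1, 15.8% for Ccl1 and 14.9% for Cxcl2, against 5.60% for Cxcl10 and 2.54% for Ccl5. In the Yoda1 libraries it was between 2.21% for Ccl5 and 9.32% for Xcl1. DMSO replicate 4 was the highest control for all of Ccl3, Ccl4, Xcl1, Ccl1 and Cxcl2, so their spreads are not independent of each other.

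Levels of different genes were compared per length of the principal transcript, as CPM per kb. In DMSO libraries Ccl5 led with 589 ± 14.95 CPM per kb, followed by Ccl3 (80.7 ± 13.5), Cxcl10 (69.2 ± 3.88), Ccl4 (46.1 ± 8.22), Xcl1 (24.5 ± 5.08), Ccl1 (15.7 ± 2.47) and Cxcl2 (4.61 ± 0.686, SD, n = 4 for each). Of the neighbours in that order, the ranges of Ccl3 and Cxcl10 overlapped, and the others did not. With Yoda1 the order became Ccl5 (620 ± 13.7 CPM per kb), Ccl3 (323 ± 9.83), Ccl4 (185 ± 11.0), Xcl1 (86.4 ± 8.06), Cxcl10 (76.1 ± 3.90), Ccl1 (42.5 ± 2.49) and Cxcl2 (7.83 ± 0.717). Ccl4 and Xcl1 thus stood above Cxcl10 in the Yoda1 means and below it in the DMSO means, and the ranges of Xcl1 and Cxcl10 overlapped with Yoda1.

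Summed over the 9 genes, chemokine reads made up 0.0501% to 0.0536% of a DMSO library and 0.0820% to 0.0873% of a Yoda1 library, or 496 to 532 against 830 to 882 CPM. Ccl5 gave 57.4% to 64.6% of these reads with DMSO and 37.5% to 39.5% with Yoda1, while Ccl3 and Ccl4 together gave 16.5% to 21.7% and 42.2% to 43.8%. Since Ccl5 itself overlapped between the groups, its share is smaller because the summed total is larger.

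**Figure D3:**
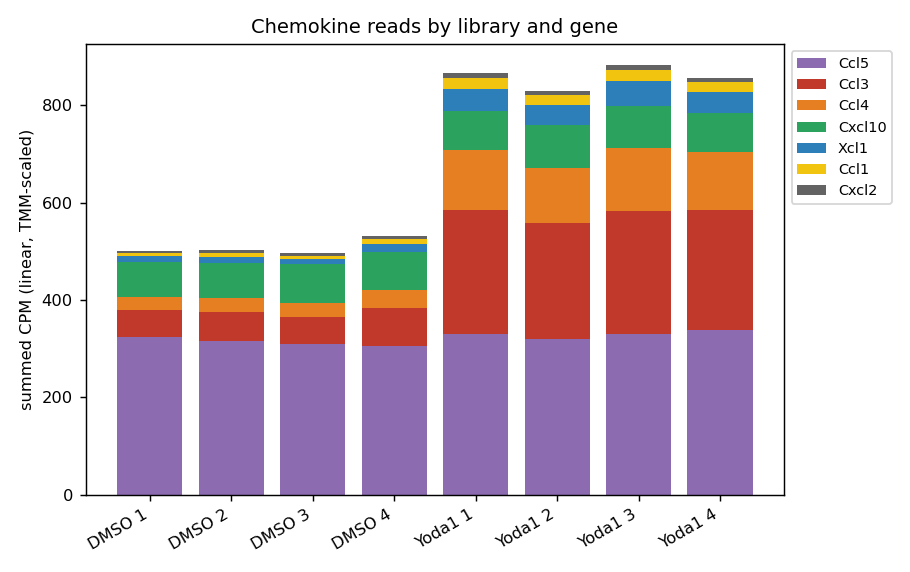
Summed CPM of the chemokine genes in each of the 8 libraries on a linear axis from 0, divided by gene, with Ccl17 and Ccl22 too low to show. The Yoda1 libraries reach 830 to 882 CPM against 496 to 532 for DMSO, with the Ccl5 segment of similar height in both and the Ccl3 and Ccl4 segments larger with Yoda1; longer transcripts collect more reads, so heights compare libraries rather than genes.

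A further 32 chemokine genes were listed, with earlier results of these data known. Of these, 8 had no count in any library, 18 in all never exceeded 3 counts and 9 were tested. Of these 9, 2 were higher with Yoda1 and none was lower in edgeR, DESeq2 or limma-voom. Over all tested genes 6.04% were higher and 4.84% lower at edgeR's adjusted threshold. At an unadjusted edgeR p of 0.05, 3 of the 9 were higher and 1 was lower, beside 1563 higher and 1530 lower of all 12239. Ccl9, a Ccr1 ligand, was at 7.70, 8.49, 7.86 and 8.87 CPM with DMSO and at 13.97, 11.99, 13.8 and 13.4 CPM with Yoda1. Its rise was 0.69 on the log2 scale (standard error 0.0930, adjusted p = 4.78e-06, edgeR quasi-likelihood, Benjamini-Hochberg).

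Cxcl3, a Cxcr2 ligand, was at 98.2, 97.5, 95.4 and 95.9 CPM with DMSO and at 136, 124, 133 and 124 CPM with Yoda1. The groups were tight and apart, and it rose by 0.42 on the log2 scale (standard error 0.0404, edgeR quasi-likelihood adjusted p = 1.26e-08). The 7 not called were Cxcl9 (log2 fold change 0.47, edgeR adjusted p = 0.0930), Cx3cl1 (-0.69, edgeR adjusted p = 0.0599), Cxcl5 (0.17), Cxcl16 (0.18), Ccl24 (0.16), Ccl25 (-0.37) and Ccl27a (0.041). For Cxcl9 all 4 Yoda1 libraries lay above and for Cx3cl1 all 4 lay below the controls. The 9 log2 fold changes had a median of 0.17, against -0.0053 over all genes tested.

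Ccl7, a monocyte attractant named here after its values were seen, had 2, 0, 0 and 0 counts with DMSO and 5, 7, 4 and 3 with Yoda1 and was too low for the filter. Monocyte attractants Ccl2, Ccl8 and Ccl12 did not pass it either, with at most 8 counts in a library. Ccl20 had no count at all. Of the eotaxins, Ccl11 and Ccl26 had none either, and Ccl24 was tested and not called.

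**Figure D4:**
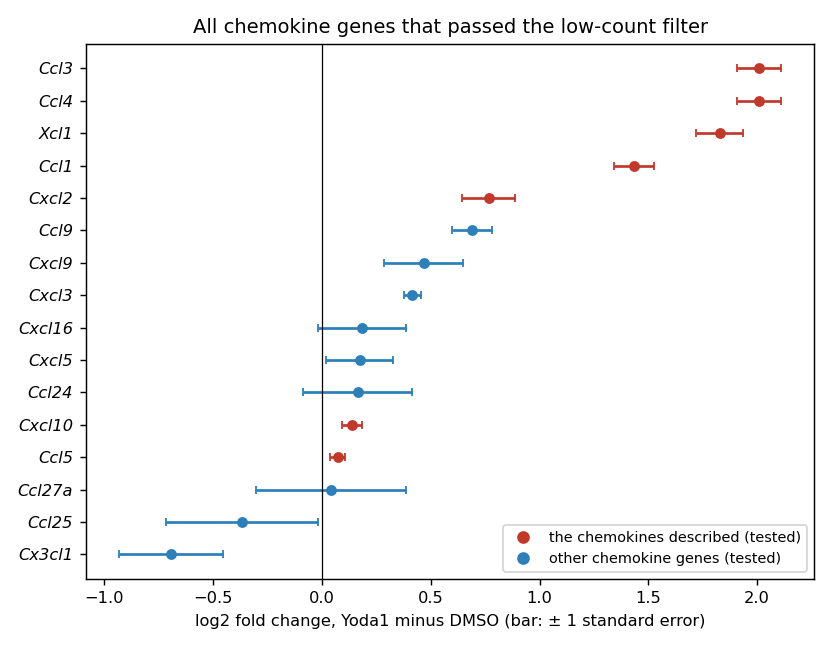
Log2 fold change, Yoda1 minus DMSO, for the 16 chemokine genes that passed the low-count filter, with bars of 1 standard error from the edgeR fit. Red marks the genes described here, chosen with this contrast known, and blue the other chemokine genes; Ccl3, Ccl4, Xcl1 and Ccl1 lie beyond 1, Ccl9 and Cxcl3 are the blue genes that were called, and Cx3cl1 is the lowest at -0.69.

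Receptors for these ligands were examined in the same cells, from a list drawn up with earlier results of these data known. Of 24 chemokine receptor genes 14 were tested, with 4 higher and 1 lower, and their median log2 fold change was 0.041. Over all tested genes 6.04% were higher and 4.84% lower at the same adjusted threshold. Xcr1, the Xcl1 receptor, was at 17.3, 16.2, 16.1 and 16.5 CPM with DMSO and at 26.6, 25.9, 22.9 and 26.6 CPM with Yoda1. The groups stood apart, and Xcr1 rose by 0.63 on the log2 scale (standard error 0.0709, edgeR quasi-likelihood adjusted p = 2.07e-07). Ccr8, the Ccl1 receptor, rose from 49.6 ± 1.62 to 56.0 ± 3.85 CPM (log2 fold change 0.18, edgeR adjusted p = 0.0242), although the lowest Yoda1 library overlapped the controls. Ccr1, a receptor of Ccl3 and Ccl5, rose from 68.0 ± 3.85 to 75.8 ± 1.67 CPM (0.16, edgeR adjusted p = 0.0213).

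Cxcr4, the Cxcl12 receptor, rose by 0.23 on the log2 scale (edgeR adjusted p = 0.0140). Ccr2, the receptor for monocyte attractants, fell from 225 ± 7.75 to 203 ± 2.56 CPM (log2 fold change -0.15, edgeR adjusted p = 0.00654). The calls of Ccr1, Ccr8 and Cxcr4 were lost in 4, 5 and 1 of 15 alternative analyses. For Ccr1 the edgeR adjusted p was 0.0503 without DMSO replicate 1, 0.0787 without DMSO replicate 3 and 0.0907 without Yoda1 replicate 4. For Ccr8 it was 0.0771 without DMSO replicate 2, 0.0678 without Yoda1 replicate 1 and 0.112 without Yoda1 replicate 2, and for Cxcr4 0.0749 without the last.

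Ccr4, for Ccl17 and Ccl22, was at 120 and 118 CPM (-0.018, edgeR adjusted p = 0.825). Ccr3, Cxcr2 and Cxcr3 were near the lower end of what was tested, with means from 1.08 to 2.52 CPM, and none was called. Cxcr6, the receptor of Cxcl16 and the most counted of the list, was at 723 and 761 CPM (0.072, edgeR adjusted p = 0.193).

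**Figure D5:**
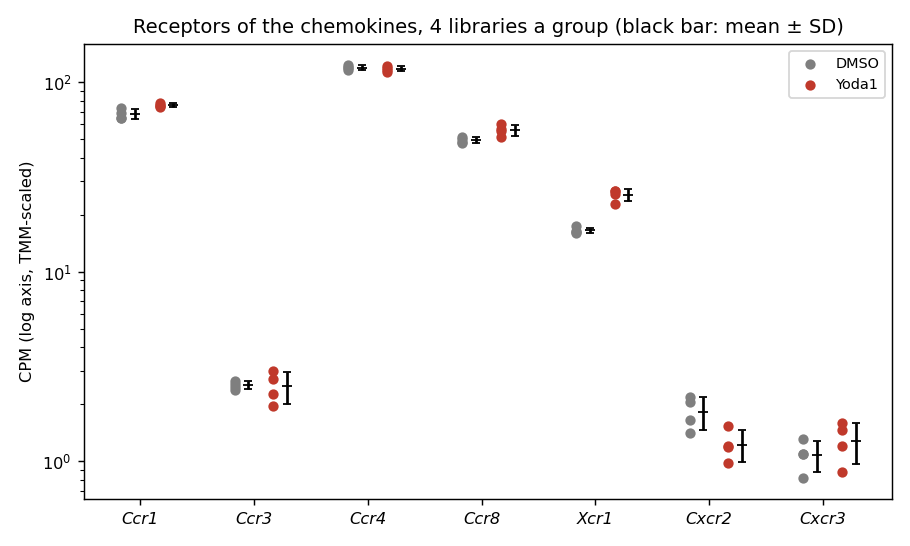
CPM on a log axis of 7 receptor genes whose proteins bind the described ligands, with 4 DMSO and 4 Yoda1 libraries as points and the mean ± SD as black bars. Xcr1 lies apart between the groups (16.1 to 17.3 against 22.9 to 26.6 CPM), Ccr4 overlaps, and Ccr3, Cxcr2 and Cxcr3 are the lowest.

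Of 26 other secreted cytokines and growth factors 21 were tested, with 10 higher, 3 lower and a median log2 fold change of 0.13. This list too was drawn up with earlier results of these data known, so its counts are a description. The shares over all tested genes were 6.04% higher and 4.84% lower. Ifng, the type 1 cytokine that induces Cxcl9 and Cxcl10 in many cells, was at 95.5, 102, 105 and 120 CPM with DMSO and at 260, 257, 283 and 272 CPM with Yoda1. Its rise of 1.35 on the log2 scale (standard error 0.0548, edgeR quasi-likelihood adjusted p = 1.08e-11) was the largest of the list and the only one past 1. Lta, a lymphotoxin gene, moved the other way, from 243, 223, 221 and 210 CPM to 126, 119, 138 and 131 CPM (log2 fold change -0.81, standard error 0.0455, edgeR adjusted p = 6.90e-13). Of the type 2 cytokines, Il13 rose by 0.30 (edgeR adjusted p = 3.61e-07) and Il5 by 0.14 (edgeR adjusted p = 0.00733), while Il4 was at 14.02 and 14.45 CPM and was not called (log2 fold change 0.038, edgeR adjusted p = 0.850).

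The other genes that rose were Il10 (log2 fold change 0.62), Il6 (0.52), Tnfsf11 (0.37), Csf2 (0.35), Penk (0.26), Areg (0.20) and Tnf (0.16), each with an edgeR adjusted p of at most 0.00878. Osm fell (-0.16, edgeR adjusted p = 0.00270), and so did Il9 (-0.29, edgeR adjusted p = 0.0465), whose call was lost in 9 of 15 alternative analyses. Leaving out DMSO replicate 1, 3 or 4 or Yoda1 replicate 1, 2 or 4 gave Il9 an edgeR adjusted p between 0.0757 and 0.173. Ifng shares exon sequence with Gm49751 on its own strand, and opposite-strand exons overlap Il5, Csf2 and Penk. Lif and Tgfb1, among the most counted, were at -0.066 and 0.033 and were not called.

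Transcription factors that lymphocytes induce on activation were a further list of 28 genes, all tested. The list was drawn up with earlier results of these data known, so its counts are a description. In this list 16 were higher and 1 was lower, with a median log2 fold change of 0.18. Among all tested genes 6.04% were higher and 4.84% lower. The nuclear receptors Nr4a2 (2.11), Nr4a3 (1.505) and Nr4a1 (0.75), the Egr factors Egr3 (1.39), Egr2 (1.38) and Egr1 (0.43) and the AP-1 members Fosb (1.34) and Jun (0.44) rose, each with an edgeR adjusted p of at most 0.000308. Egr3 was at 10.5, 11.9, 11.6 and 15.6 CPM with DMSO and at 30.4, 32.9, 33.1 and 32.2 CPM with Yoda1, and DMSO replicate 4 was its highest control too. Of the NF-kB genes, Rel (0.78, edgeR adjusted p = 2.29e-09), Nfkb1 (0.22, 3.46e-05), Nfkbiz (0.15) and Relb (0.14) rose, while Nfkb2, Rela and Nfkbia were not called.

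Of the NFAT genes themselves, Nfatc1 rose slightly (0.15, edgeR adjusted p = 0.0346), Nfatc2 fell (-0.28, edgeR adjusted p = 0.000833) and Nfatc3 was not called (-0.080). The interferon-related Irf8 (0.45, edgeR adjusted p = 2.04e-09) and Irf1 (0.14, edgeR adjusted p = 0.00478) rose. Several of these small differences depended on the library set and on the analysis. The call of Nfatc1 was lost with all libraries kept under DESeq2 (adjusted p = 0.0596), library size scaling (edgeR adjusted p = 0.0687) and upper-quartile factors (edgeR adjusted p = 0.0903). It was also lost without DMSO replicate 1 or 3 or Yoda1 replicate 1, 2 or 3 (edgeR adjusted p from 0.0545 to 0.118). The call of Relb was lost without DMSO replicate 4 (edgeR adjusted p = 0.0723) or Yoda1 replicate 4 (0.0555) and with upper-quartile factors (0.0729). Exons of other genes overlap Jun and Irf1.

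Many chemokine mRNAs carry AU-rich repeats in the 3′ UTR that speed their decay. The letters ATTTA occurred 11 times in the 3′ UTR of Cxcl2 (15 per kb), 5 times in Ccl3 (12.2 per kb), 2 times in Ccl4 (6.62 per kb), 1 time in Xcl1 (7.09 per kb) and 2 times in Cxcl10 (2.74 per kb). Ccl22 had 2 in a long UTR (1.1 per kb), and Ccl1, Ccl5 and Ccl17 had none. Over 19520 genes, each read at its longest annotated 3′ UTR, 66.8% had at least 1 and the median was 1.20 per kb. The members were read at the principal transcript only, so the values for all genes here are not a like-for-like comparison. A longer form of the repeat, given in capitals in the site shown, was found in Cxcl2 alone, 4 times, and in 7.66% of all genes. The first of these sites is printed because Cxcl2 had the densest repeats of the 9.
Cxcl2 3′ UTR site: gagttcacTTATTTATTtatctatg

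Of 10 tested regulators of mRNA decay, 1 was higher and none lower in edgeR, DESeq2 or limma-voom. At an unadjusted edgeR p of 0.05, 2 were higher and 1 was lower, beside 1563 higher and 1530 lower of all 12239 genes tested. The median log2 fold change of the list was 0.038. Adjusted edgeR shares over all tested genes were 6.04% higher and 4.84% lower, and 1 of 10 is close to the former. Zfp36, which encodes a protein that binds AU-rich repeats and promotes decay, rose from 12.8 ± 1.66 to 17.2 ± 1.23 CPM (log2 fold change 0.43, standard error 0.0885, edgeR quasi-likelihood adjusted p = 0.00138). Ybx1, Zfp36l2, Hnrnpd and Khsrp, the most counted of the list, had log2 fold changes from -0.092 to 0.085 and were not called. Opposite-strand exons of Gm44710 overlap Zfp36. Ybx1 was called higher without DMSO replicate 1 (0.11, edgeR adjusted p = 0.0290).

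Genes beside the members on the chromosome were read to see how local the differences were. Among the 5 nearest protein-coding genes on each side of each member, 63 genes were counted and 34 were tested. Of the tested neighbours 5 were higher and 1 lower, with a median log2 fold change of 0.037. Across all tested genes 6.04% were higher and 4.84% lower. Ccl9 lies between Ccl5 and Ccl3, 42.4 kb from the former and 69.2 kb from the latter. Near Cxcl2 lie Cxcl3 (114.3 kb) and Areg (233.7 kb), both higher as given above. The others were Polr2c near Ccl17 (log2 fold change 0.17, edgeR adjusted p = 0.0285), Dcaf6 near Xcl1 (0.23, edgeR adjusted p = 0.0258) and, lower, Cpne2 near Ccl22 (-0.31, edgeR adjusted p = 0.0161). The call of Polr2c was lost without DMSO replicate 2, 3 or 4 or Yoda1 replicate 1 or 4 (edgeR adjusted p up to 0.103), that of Dcaf6 without DMSO replicate 2 or 3 or Yoda1 replicate 2 or 4 (up to 0.105), and that of Cpne2 without DMSO replicate 3 or 4 (up to 0.0630). Polr2c and Dcaf6 also lost theirs with DESeq2 and with upper-quartile factors, and Polr2c with library size scaling.

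The genes whose log2 CPM followed each chemokine most closely over the 8 libraries were found by Pearson's r, which the difference between the groups dominates. Plek (r = 0.999), Ifng (0.998), Emp1 (0.997), Atf3 (0.995) and Slco4a1 (0.995) were nearest to Ccl3, and Ccl4 had Plek, Ifng, Emp1, Crtam and Atf3. Xcl1 was nearest to Plek (0.994), Hilpda, Emp1, Ifng and Egr3, and Ccl1 to Hilpda (0.994), Plek, Havcr2, Emp1 and Pmaip1. Cxcl2 was nearest to Tbx21 (0.991), D8Ertd82e, Nkg7, Spp1 and Havcr2, the last shared with Ccl1. Ccl5 was nearest to Necap1 (0.979), Slfn2, Serpina3g, Fxyd5 and Chmp7, and Cxcl10 to Gpr146 (0.966), Srebf1, Ccrn4l, Unk and Mia3.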

How the data were processed

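Bulk mRNA-seq of cultured murine lung ILC2s was analysed, 4 Yoda1 and 4 DMSO libraries. The authors deposited, for each library, whole-number read counts by gene symbol without normalization. Per the labels, the submitters' processing notes name TopHat and mm10, and the study's methods say that reads were treated with FASTX Trimmer and BBMap and that expression was analysed with Cufflinks and Cuffdiff. Which annotation the counting used, and whether it was stranded, is not given in the sources used here. From the counts, genes were filtered with filterByExpr (minimum count 10, minimum total 15), scaled with TMM and fitted in R 4.3.3 with edgeR 4.0.16 (robust quasi-likelihood test, Benjamini-Hochberg, threshold 0.05). The standard error is the absolute log2 fold change divided by the root of F. Likeness used log2 CPM with a prior count of 2. The script was tested on simulated data.

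The members and the gene lists were chosen with earlier results of these data known, so the members carry no p. For the same reason the counts of list genes called are a description. Genes named are the members, list genes past the threshold or among the 4 most counted of their list, receptors of the member ligands, called neighbours and the 5 most alike genes per member. Cxcl9, Cx3cl1 and other members of a list are given to account for it, and Ccl7 was named after its values were seen. A few listed genes are counted but not reported here by name. Single sums were compared by two-sided exact permutation tests. Standard deviations and standard errors hold the spread between libraries as well as counting error. The floor was 3 counts, which covers counting error only.

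Positions, transcript lengths and UTRs are from GENCODE M21, in which 95.5% of the symbols matched, and promoters from RefSeq, for 7 of 9 members. Each result was recomputed with upper-quartile factors, with library size alone, with DESeq2 1.42.0, with limma-voom (limma 3.58.1), without the filter, with at least 10 counts in every library, with a replicate block, and leaving out single libraries. All 8 libraries differed within groups by more than sampling noise (chi-square per gene 2.03 to 6.94).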

Additional observations from a re-analysis of the deposited data

Results flagged for a closer look

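Of 94 groups of 4 libraries examined, 4 held a library far from the other 3, where about 1 in 20 would by chance (4.7 groups). DMSO replicate 4 was high for Ccl3, at 77.2 CPM with the next library at 58.5, and for Ccl4, at 38.5 CPM with the next at 28.6. Both belong to the same library and are not independent. For Areg, Yoda1 replicate 3 was high at 341.8 CPM with the next at 319. For Osm, Yoda1 replicate 2 was low at 188 CPM with the next at 196.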

How the results depend on the processing

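The log2 fold changes of the 7 tested chemokines kept their direction in the 15 alternative analyses, and each moved by less than the spread between replicates. They ran from 1.96 to 2.13 for Ccl3 and for Ccl4, 1.74 to 1.96 for Xcl1, 1.37 to 1.52 for Ccl1, 0.68 to 0.84 for Cxcl2, 0.11 to 0.17 for Cxcl10 and 0.042 to 0.088 for Ccl5. Of 570 values for called list genes, 35 lost their call and none reversed. Over all genes, 739 were higher and 592 lower. The split was 505 and 958 with upper-quartile factors, the number lower was 372 with DESeq2, and without 1 library it was 367 (DMSO replicate 2) to 677, with 374 without Yoda1 replicate 4. The causes were not tested.

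Among the other chemokines Cx3cl1 became lower, 1 gene in place of 0, with upper-quartile factors, with at least 10 counts in every library and without Yoda1 replicate 2 (range without a library 0 to 1), and Ccl7 became higher with no filter. Receptors higher numbered 2 in place of 4 with upper-quartile factors (Ccr1 and Ccr8 lost) and 2 to 4 without a library, with 2 without Yoda1 replicate 2. Decay regulators higher numbered 1 to 2, with 2 without DMSO replicate 1. Neighbours higher numbered 3 in place of 5 with DESeq2 and with upper-quartile factors (Dcaf6 and Polr2c lost), and 3 to 5 without a library, with 3 without DMSO replicate 2, DMSO replicate 3 or Yoda1 replicate 4. Neighbours lower numbered 2 in place of 1 with upper-quartile factors and with at least 10 counts in every library, and 0 to 2 without a library, with 0 without DMSO replicate 3 or 4 and 2 without Yoda1 replicate 2.

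No pairing by replicate number was detected, and the libraries were treated as unpaired. Same-numbered libraries had correlations of -0.028 to 0.071, and only DMSO replicate 2 was closest to its own number. Correlations this low cannot show that no pairing existed. With the replicate block 548 genes were higher and 418 lower, the log2 fold change of Ccl3 was 2.01, and the calls of Ccr8, Il5, Il9, Nfatc1 and Polr2c, among others, were lost. Depth limits Ccl17, Ccl22 and Ccl7, which had at most 12 counts in a library.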
